A study of Rattus norvegicus with 10 samples.

Results

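Transcripts of the protein-making machinery were followed in joint-lining (synovial) tissue of rats with and without collagen-induced arthritis (CIA), a joint inflammation provoked by immunisation with cartilage collagen. The array used carries 14145 circular RNA (circRNA) probes and 62 probes of linear transcripts, and 4 genes were chosen among the latter by transcript identifier, so 4 of 62 linear probes are described. They were Rplp1 (NM_001007604.1), Rpl13a (NM_173340.2), Eif4b (NM_001008324) and Pop7 (NM_001105918), each read by 1 probe with 10 spots on every array. The normal group held 5 samples of synovial tissue from male rats labelled normal, and the CIA group 5 from male rats with induced arthritis. All were aged 7 to 8 weeks and labelled 21 days, and strain and collagen dose are not given in the sources used here. The titles number the samples without naming animals, so p-values here measure spread among these 10 samples, part of which may be technical. All 10 samples were treated with RNase R, an enzyme that digests linear RNA and leaves circles, before Cy3 labelling, so the linear probes were read after a step meant to remove linear transcripts. The levels below are therefore not levels in untreated total RNA.

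A ribosome joins amino acids at the direction of a messenger RNA, and its own proteins are encoded by some of the most abundant messages of any cell. Ribosomal protein messages of vertebrates begin with a tract of pyrimidines, the TOP motif, through which growth signalling by the mTOR kinase controls their translation. In an inflamed joint, proliferating synovial fibroblasts and incoming leukocytes both depend on this machinery. The measured genes stand at different steps. Rplp1 encodes an acidic protein of the ribosomal stalk, which recruits translation factors. Rpl13a encodes a protein of the large subunit that can also leave the ribosome and, in interferon-treated myeloid cells, represses translation of inflammatory messages. Eif4b encodes an initiation factor that stimulates the helicase eIF4A and is phosphorylated downstream of mTOR. Pop7 encodes a shared subunit of RNase P, which trims the leader of transfer RNA precursors, and of RNase MRP, which cuts ribosomal RNA precursors.

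The starts of the ribosomal protein genes are shown because the TOP motif is a sequence feature of such genes. RefSeq promoter windows of assembly GRCr8 matched these 2 of the 4 genes, and the starts of Eif4b and Pop7 were not examined. The 80 bases before and the 20 bases from the annotated start are printed, 5′ to 3′ on the minus strand, with the longest run of only C and T that reaches within 5 bases of the start in capitals.
Rplp1, GRCr8 chr8:71290853-71290952, minus strand: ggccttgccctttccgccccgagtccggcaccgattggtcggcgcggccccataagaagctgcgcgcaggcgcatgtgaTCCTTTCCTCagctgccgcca
Rpl13a, GRCr8 chr1:104748894-104748993, minus strand: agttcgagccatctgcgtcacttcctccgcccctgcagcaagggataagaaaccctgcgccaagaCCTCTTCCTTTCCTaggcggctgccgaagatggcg
The run in Rplp1 was 10 bases long, from position -1 to position 8 with the annotated start as 0, and 4.64% of the 33469 windows of the same length held one at least as long there. In Rpl13a it was 14 bases long, from -15 to -2, and 1.43% of windows held one at least as long. Both are pyrimidine runs at or just before an annotated start, searched on the gene's own strand only. A run is a description, and whether either works as a TOP motif was not tested.

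The file headers divide the arrays into 2 scan runs that nearly follow the groups. The 5 CIA arrays and normal replicate 1 were scanned in run 1. The other 4 normal arrays made up run 2. The arrays also differed in brightness: the 75th percentile of the circRNA signal, the quantity each level below is divided by, was 133 to 315 units on normal and 263 to 381 units on CIA arrays. CircRNA probes well above background made up 88.2% to 98.4% of all on normal and 93.4% to 99.8% on CIA arrays. Adenoviral E1A control probes, which match no rat gene, read at log2 levels of -3.69 to -2.76 on normal and -3.07 to -2.01 on CIA arrays. The part of these array differences in the results below was not tested. Of 41 marker genes of 12 synovial and neighbouring cell types, 1 had a named probe (Map2, of nerve), so the labelled tissue could not be checked against its markers.

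All 4 probes were bright enough to read on every array. All 400 of their spots were well above background, none was saturated (0 of 400), and 11 were marked as outliers and left out. The spots of a probe lay close together: the median SD among the spots of an array was 0.052 to 0.11 on normal and 0.11 to 0.16 on CIA arrays (log2, lowest and highest of the 4 probes). The number of arrays therefore limits the precision, and not the spread among spots.

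**Figure D1:**
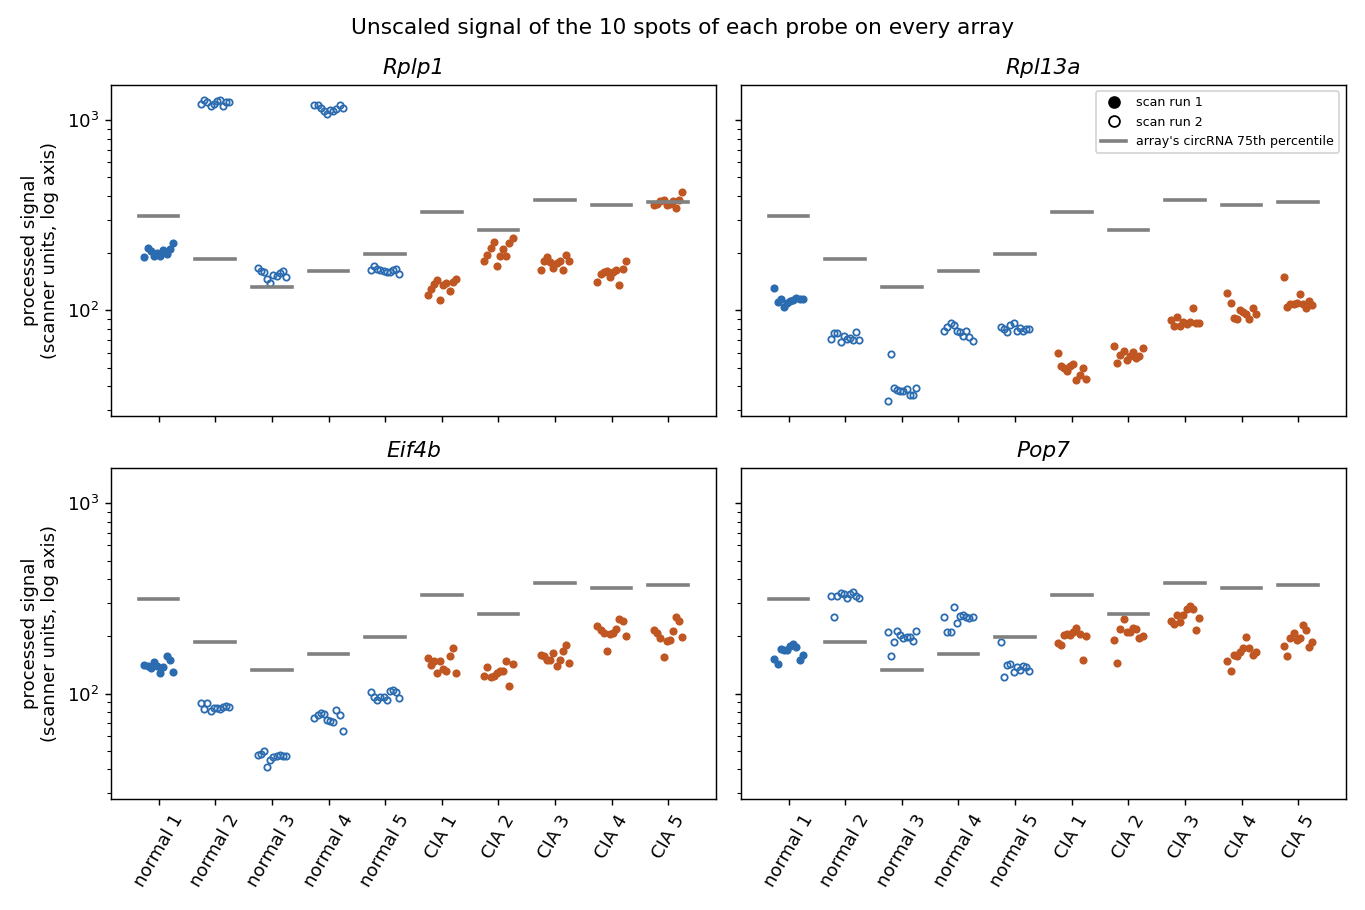
Processed signal in scanner units (log axis) of the 10 spots of each probe on the 10 arrays, outlier spots included, with filled points for scan run 1, open points for scan run 2 and a grey bar at the array's circRNA 75th percentile. Rplp1 stood highest on normal replicates 2 and 4 (1235 and 1148 units), while the grey bars were higher on the CIA arrays and normal replicate 1 than on the normal arrays of scan run 2.

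Rplp1 had the largest group difference of the 4 genes, and its normal mean was carried by 2 of the 5 normal arrays. Its level, given as log2 of signal over the circRNA 75th percentile of the same array, was -0.63, 2.72, 0.22, 2.84 and -0.29 on normal replicates 1 to 5. On CIA replicates 1 to 5 it was -1.30, -0.37, -1.10, -1.20 and -0.0030. Normal replicates 2 and 4 stood well above every other array, and the other 3 normal arrays lay within or just above the CIA range. As unscaled signal, those 2 arrays read 1235 and 1148 units, against 133 to 371 units on the other 8. The mean was 0.97 ± 1.68 over the normal and -0.79 ± 0.57 over the CIA arrays (SD, n = 5 each), and CIA minus normal was -1.76 on the log2 scale (SE 0.69, 95% interval -3.27 to -0.26). The adjusted p was 0.12 in limma, with Benjamini-Hochberg adjustment over the 62 linear probes, so Rplp1 did not pass. All 5 CIA arrays lay below the normal mean and 3 below every normal array. In this bulk tissue, fewer cells of a type, less RNA per cell, the RNase R step and the scan run cannot be told apart.

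The normal spread of Rplp1 was wide for this array: its SD of 1.68 ranked 3 of 62 among linear probes on the normal arrays, while its SD of 0.57 ranked 34 of 62 on the CIA arrays. Within scan run 1 the CIA mean differed from normal replicate 1 by -0.16 (SE 1.07 with scan run as a block, limma adjusted p = 0.99; 0 of 62 linear probes, 0%, passed in that fit). Without normal replicate 4 the log2 difference was -1.30, and without normal replicate 2 it was -1.33. Without normal replicate 1 it was -2.16 and passed (limma adjusted p = 0.026), but that fit set run 2 against run 1, so run and group cannot be told apart in it, and 38.7% of linear probes passed. With arrays weighted by their fit to the model it was -2.25 and passed too (limma adjusted p = 0.020), where 43.5% of linear probes passed. Normal replicate 1 had the lowest weight of the 10 arrays, 0.30, against 1.77, 2.24 and 1.74 for normal replicates 2 to 4. The weighted fit thus also set mainly run 2 against run 1, and run and group can hardly be told apart in it.

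Rpl13a differed less in size but more evenly. Its log2 level was -1.46, -1.37, -1.83, -1.05 and -1.30 on normal replicates 1 to 5. On CIA replicates 1 to 5 it was -2.74, -2.16, -2.10, -1.85 and -1.73. Among the CIA arrays, 4 of 5 lay below every normal array, and the groups overlapped only through normal replicate 3, which read below CIA replicate 5. The means were -1.40 ± 0.29 and -2.12 ± 0.39 (SD, n = 5 each), a log2 difference of -0.71 (SE 0.29, 95% interval -1.34 to -0.08, limma adjusted p = 0.12). All 5 CIA arrays lay below normal replicate 1, the normal array of their own scan run, and with scan run as a block the difference was -0.65 (SE 0.51, limma adjusted p = 0.89). It passed in 1 setting, normexp background correction, at -0.60 (limma adjusted p = 0.040), where 22.6% of linear probes passed. That setting adds an offset of 50 units before the logarithm, which by construction makes log2 differences and spread of a dim probe smaller.

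The reading of Rpl13a depended on the scaling. Its unscaled signal was 114, 72.4, 37.3, 77.6 and 80.4 units on normal replicates 1 to 5 and 49.2, 58.7, 88.5, 99.4 and 112 units on CIA replicates 1 to 5. The groups overlapped fully, with means of 76.4 ± 27.3 and 81.6 ± 26.9 units (SD, n = 5 each). Without scaling the log2 difference was 0.11 (SE 0.40), the opposite sign, while the median linear probe stood at 0.94. Ribosomal protein genes have near-identical processed copies in mammalian genomes, and the probe sequences were not used here, so signal from such copies of Rpl13a or Rplp1 cannot be told apart from the named genes.

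Eif4b, the initiation factor, had the smallest group difference of the 4 genes. Its log2 level was -1.16, -1.14, -1.51, -1.12 and -1.02 on normal replicates 1 to 5. On CIA replicates 1 to 5 it was -1.19, -0.99, -1.29, -0.71 and -0.82. The groups overlapped, with no CIA array below the lowest normal one and CIA replicates 2, 4 and 5 above every normal array. The means were -1.19 ± 0.19 and -1.0 ± 0.24 (SD, n = 5 each), a log2 difference of 0.19 (SE 0.25, 95% interval -0.37 to 0.74, limma adjusted p = 0.65), an interval that leaves room for a change in either direction. Its SD on normal arrays was the lowest of the 62 linear probes (rank 62 from the top) and its SD on CIA arrays ranked 59. The unscaled signal was 46.6 to 141 units on normal and 132 to 219 units on CIA arrays, a log2 difference of 1.02 (SE 0.38, limma adjusted p = 0.057) beside 0.94 for the median linear probe. The small difference of Eif4b is thus one relative to the brightness of each array.

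Pop7, the RNase P and MRP subunit, was highest on 3 of the 4 normal arrays of scan run 2. Its log2 level was -0.94, 0.77, 0.59, 0.61 and -0.55 on normal replicates 1 to 5. On CIA replicates 1 to 5 it was -0.75, -0.37, -0.59, -1.15 and -0.95. Normal replicates 2, 3 and 4 lay above every CIA array, and normal replicates 1 and 5 lay within the CIA range. The means were 0.10 ± 0.78 and -0.76 ± 0.30 (SD, n = 5 each), a log2 difference of -0.86 (SE 0.38, 95% interval -1.70 to -0.02, limma adjusted p = 0.15). With scan run as a block the sign turned, to 0.18 (SE 0.56, limma adjusted p = 0.93). Normal replicate 1 read below 3 of the 5 CIA arrays. Unscaled, Pop7 read 213 ± 72.4 units on normal and 201 ± 33.0 units on CIA arrays (SD, n = 5 each), and CIA minus normal was -0.031 (log2, SE 0.35). Without normal replicate 1 the scaled difference was -1.12 and passed (limma adjusted p = 0.026), in the fit that sets run 2 wholly against run 1 and in which 38.7% of linear probes passed. With array weights it was -1.19 and passed (limma adjusted p = 0.012), where 43.5% of linear probes passed. Normal replicate 1 had a weight of only 0.30 there, so that fit too set mainly run 2 against run 1.

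**Figure D2:**
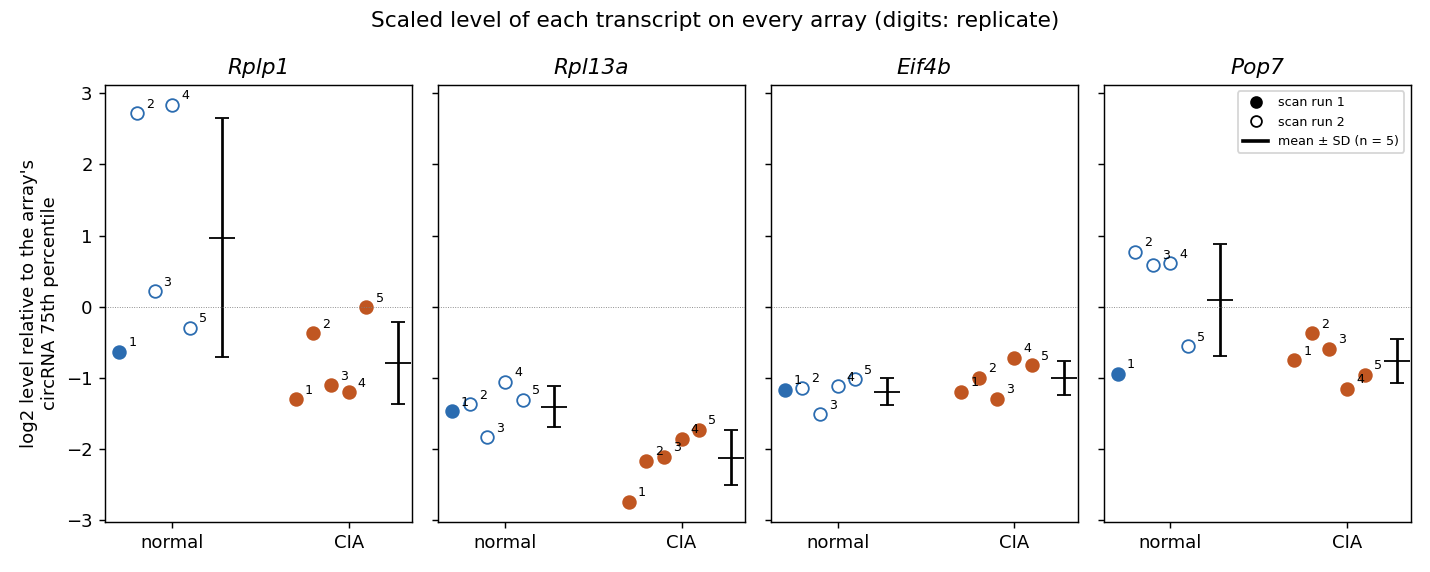
Log2 level of each transcript relative to the array's circRNA 75th percentile on every array, with the replicate number beside each point, filled points for scan run 1, open points for scan run 2 and a bar for the mean ± SD (n = 5). Normal replicates 2 and 4 carry the high normal mean of Rplp1, 4 of the 5 CIA arrays lie below all normal arrays for Rpl13a, the groups of Eif4b overlap, and normal replicate 1 sits among the CIA arrays for Pop7.

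As a group, the 4 genes gave 0 calls at an adjusted p under 0.05 in limma, beside 2 of all 62 linear probes (3.23%). At an unadjusted p under 0.05 in limma, 3 of the 4 were lower in CIA (Rplp1, Rpl13a and Pop7), beside 12 of the 62 (19.4%). Since the 4 were chosen with earlier results known and are among the 62, these counts do not test them as a set. With scan run as a block, 0 of the 4 and 1 of the 62 had an unadjusted p under 0.05 in limma. Two-sided exact permutation tests over the 252 divisions of the arrays gave p = 0.048 for Rplp1, 0.016 for Rpl13a, 0.23 for Eif4b and 0.071 for Pop7, with 0.0079 the smallest possible; these tests take no account of the scan run. Adjusted over the 62 linear probes, these exact permutation p-values were 0.12 to 0.40, and 0 of the 62 passed (17 unadjusted). The groups overlapped for all 4, and failed to overlap for 3 of the 62 (4.84%). The median log2 difference was -0.79 over the 4 and 0.12 over the 62, and 3 of the 4 and 27 of the 62 differences were below 0 (43.5%). In order of their difference, lowest first, Rplp1 ranked 5, Pop7 15, Rpl13a 20 and Eif4b 39 of 62. The 62 hold few other genes of translation: the ribosomal protein list found Rplp1 and Rpl13a, the initiation factor list Eif4b and the RNase P list Pop7, and the lists of elongation factors, tRNA synthetases and ribosome biogenesis found 0. The 23 linear probes without a symbol were not assigned to any list.

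**Figure D3:**
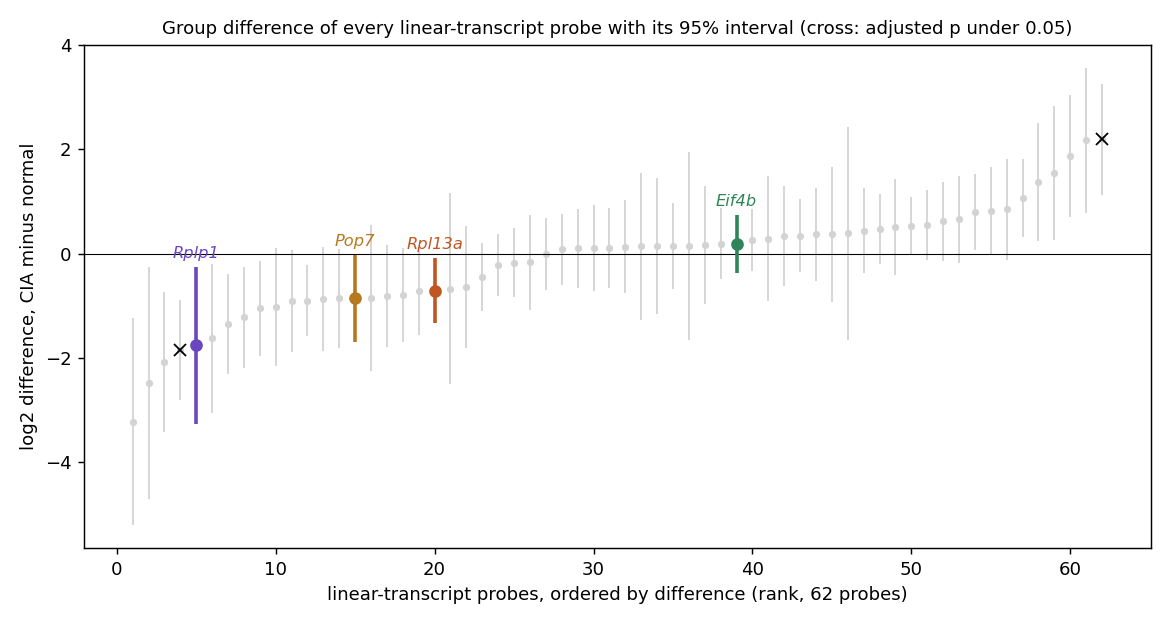
Log2 difference (CIA minus normal) of the 62 linear-transcript probes in rank order, with 95% intervals; the 4 genes are coloured and named, and a cross marks a probe past the adjusted threshold. Rplp1, Pop7 and Rpl13a lie in the lower part of the order at ranks 5, 15 and 20, Eif4b lies at rank 39, and neither cross is one of them.

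The size of these differences depended on the scaling. A scaling that subtracts 1 constant per array shifts every probe alike, so it leaves the distance of a gene from the median linear probe as it is by construction. Quantile normalization and normexp can change that distance, and both did. Normexp was run on the median signal of each spot, not the processed signal, with an offset of 50 units added before the logarithm. The offset makes log2 differences of dim probes smaller by construction, so normexp distances are not on the same scale as the others. For Rplp1 it was -1.88 as scaled here, -1.55 after quantile normalization and -1.15 after normexp (log2). For Rpl13a it was -0.83, -0.76 and -0.26, and for Pop7 -0.97, -0.69 and -0.35. Eif4b stood above the median in all 3, at 0.071, 0.23 and 0.37. The median linear probe itself moved from 0.12 to -0.15 after quantile normalization, to 0.24 when arrays were centred on the linear probes, to -0.34 after normexp and to 0.94 without scaling. Calls over all linear probes moved with it: 1 higher and 1 lower in CIA as scaled here, 1 and 4 after quantile normalization, 4 and 1 when centred on the linear probes, 1 and 13 after normexp, and 17 and 1 without scaling (29% of the 62 linear probes, none of them 1 of the 4 genes).

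**Figure D4:**
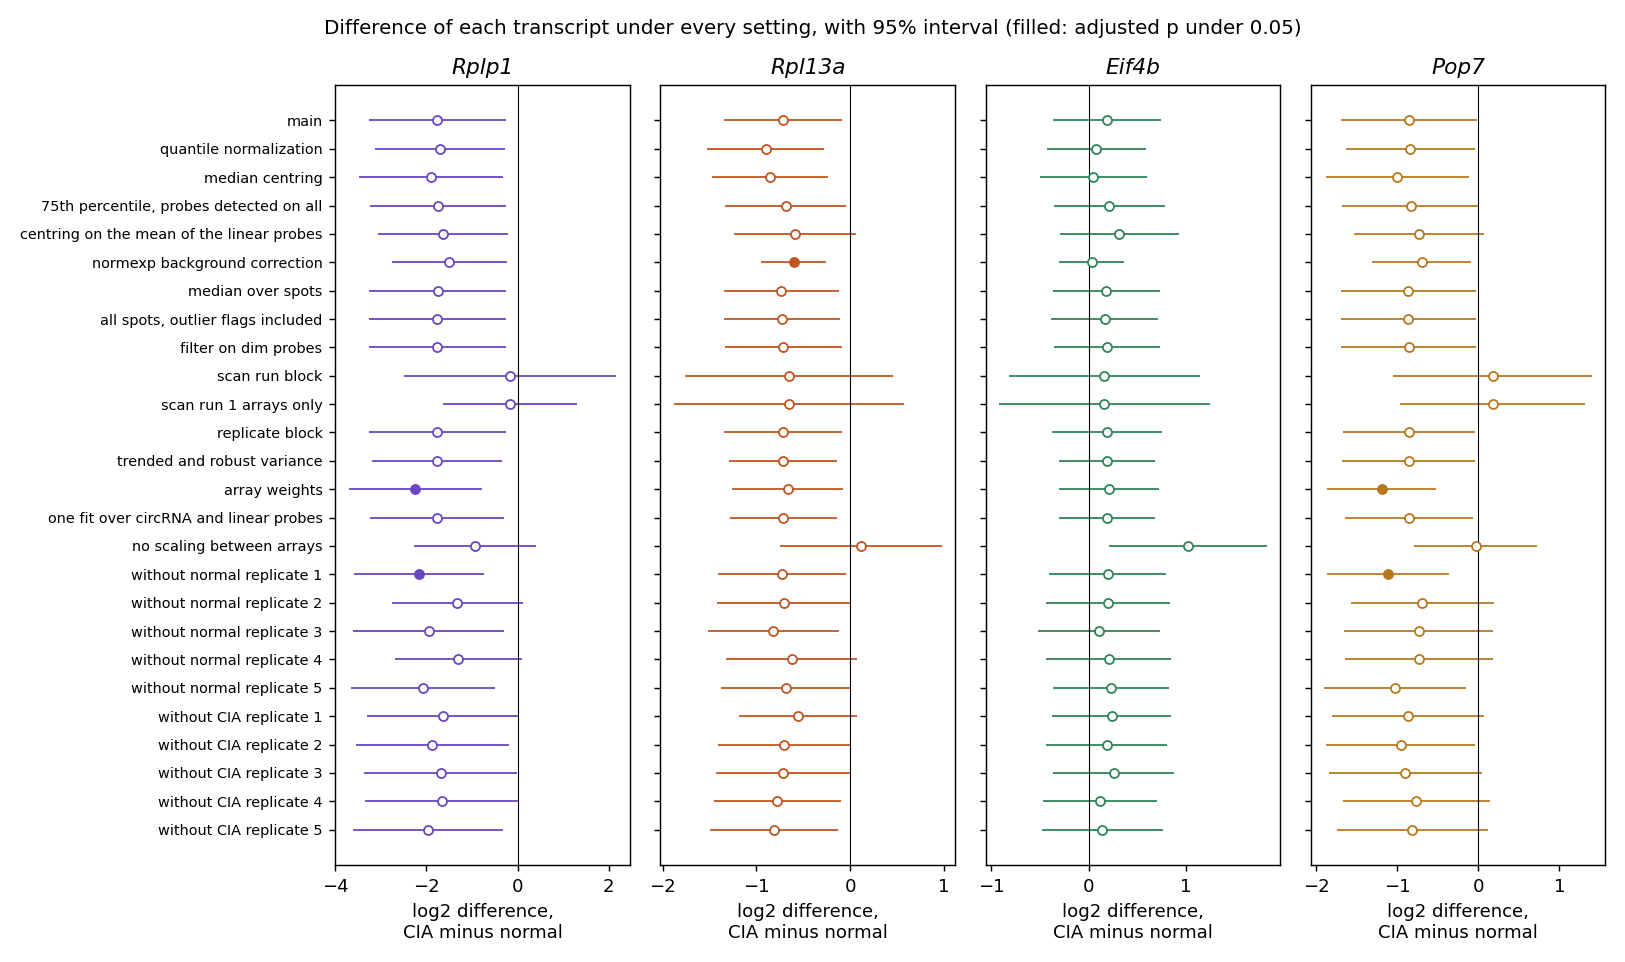
Log2 difference (CIA minus normal) of each transcript with its 95% interval under every setting, filled where the limma adjusted p was under 0.05; the top line is the scaling used in the text. Filled points are normexp for Rpl13a, and array weights and the fit without normal replicate 1 for Rplp1 and Pop7; Eif4b has none, and Pop7 lies above 0 with scan run as a block.

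Whether the genes differed from one another in their response was then asked within each array, where any scaling constant cancels. The difference between 2 probes is not a difference in transcript amount, but its change between groups can be compared. Rpl13a minus Eif4b was -0.30, -0.23, -0.32, 0.067 and -0.28 on normal replicates 1 to 5. On CIA replicates 1 to 5 it was -1.55, -1.17, -0.82, -1.14 and -0.91. The groups did not overlap, and normal replicate 1, the normal array of scan run 1, read within the range of the other normal arrays. The means were -0.21 ± 0.16 and -1.12 ± 0.28 (SD, n = 5 each), so that Rpl13a relative to Eif4b read 1.87-fold lower in CIA (log2 difference -0.90, SE 0.15). The two-sided exact permutation p was 0.0079, unadjusted, the smallest the design allows and the lowest of the 6 pairs of genes compared. Against normal replicate 1 alone the difference was -0.82, with 0.17 the smallest p that 6 arrays allow.

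This ratio was 1 of many that could be formed. Among all 1891 pairs of linear probes the groups failed to overlap in 138 (7.3%), and 1 of the 6 pairs here did. In a limma fit over those 1891 pairs, in which spread is shared across pairs, Rpl13a against Eif4b had an SE of 0.39, an unadjusted p of 0.036 and an adjusted p of 0.12, so it did not pass. In that fit 0 pairs (0%) passed, while 655 (34.6%) had an unadjusted p under 0.05. With scan run as a block 0 of the 1891 passed as well, and Rpl13a against Eif4b had -0.82 (SE 0.64, limma adjusted p = 0.89). Its difference was -0.98 after quantile normalization and -0.63 after normexp, both with an unadjusted exact permutation p of 0.0079, and it was -0.98 to -0.79 with each array left out in turn.

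In the other 5 pairs the groups overlapped, and none passed in limma over all pairs. Rplp1 against Eif4b had a log2 difference of -1.95 (SE 0.78, unadjusted two-sided exact permutation p = 0.040, limma adjusted p = 0.086) and -0.33 with scan run as a block. Eif4b against Pop7 had 1.05 (SE 0.45, unadjusted exact permutation p = 0.071), which turned to -0.014 with the block. Rplp1 against Rpl13a had -1.05 (SE 0.73, unadjusted exact permutation p = 0.22) and 0.49 with the block, so the ribosomal protein genes were not shown to differ from each other, at an uncertainty that also covers a large difference. Rplp1 against Pop7 had -0.91 (SE 0.58, unadjusted exact permutation p = 0.18). Rpl13a against Pop7 had 0.14 (SE 0.46, unadjusted exact permutation p = 0.73).

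**Figure D5:**
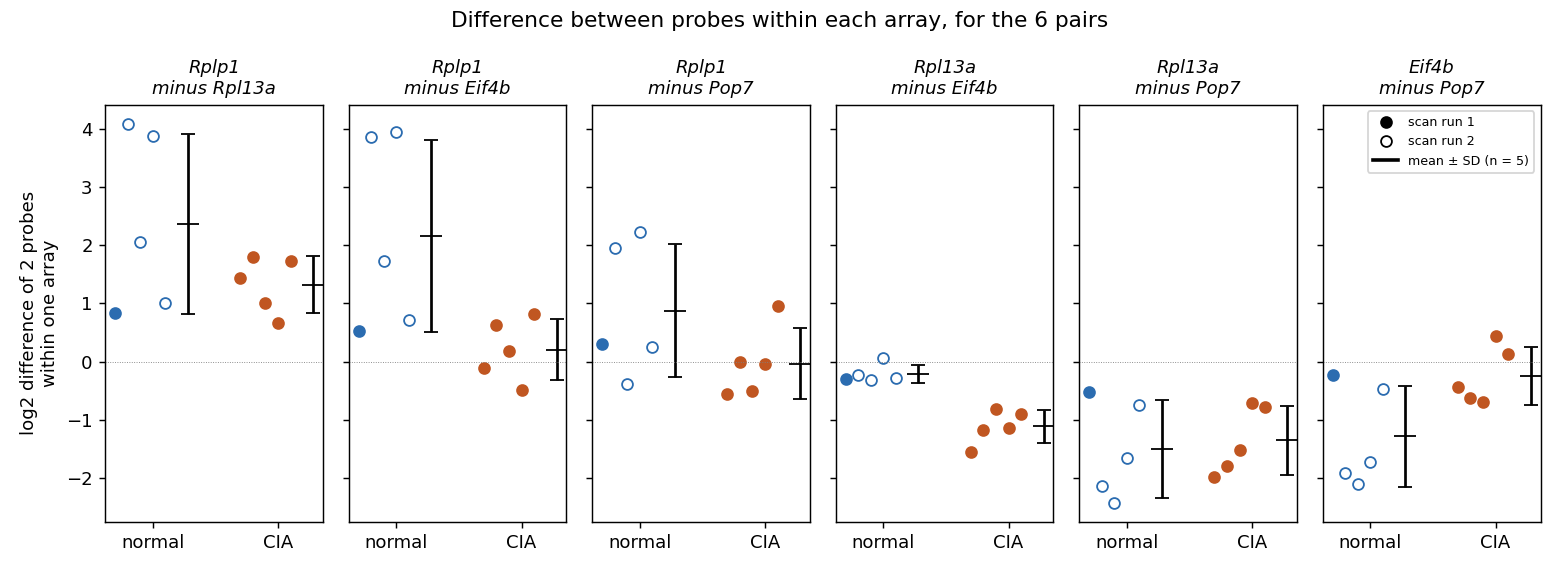
Log2 difference between 2 probes within one array for the 6 pairs of genes, with filled points for scan run 1, open points for scan run 2 and a bar for the mean ± SD (n = 5). Rpl13a minus Eif4b is the pair without overlap, at -0.32 to 0.067 on normal and -1.55 to -0.82 on CIA arrays.

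The genes whose pattern over the 10 arrays was most like each one were found by the root mean square distance between profiles centred on their own mean (log2), and 0 would mean the same profile. Among named genes outside the 4, Rplp1 was nearest to Hsp90ab1 (0.71), Actb (0.81) and Pgk1 (0.85), against a median distance of 1.56 to the 61 other probes. Pop7 was nearest to Pdk3 (0.34), Hsp90ab1 (0.38) and Pgk1 (0.48), against a median of 0.96, and Hsp90ab1 and Pgk1 were thus near both Rplp1 and Pop7. Rpl13a was nearest to Nlrp3 (0.46), P2rx2 (0.58) and Map2 (0.59), against a median of 0.88, and Eif4b itself lay at 0.50. Eif4b was nearest to Med16 (0.29), Sdha (0.36) and a probe of Ldha (0.45), against 0.82. The ribosomal protein genes were not each other's nearest: Rpl13a ranked 12 of 61 from Rplp1, at 1.15, and Rplp1 ranked 50 of 61 from Rpl13a. Profiles were not brought to equal spread, so a distance also reflects how widely each probe varied. The log2 range over the 10 arrays was 4.14 for Rplp1 and 1.69 for Rpl13a. These distances share the arrays, their scaling and the scan runs, and are descriptions.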

How the data were processed

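Synovial RNA of 10 samples (5 normal, 5 CIA, groups and replicate numbers from the titles) was read on 1 single-colour array each. The deposited intensity values come from Agilent Feature Extraction 11.0.1.1, which subtracts background and corrects within the array, per the file headers, with no scaling between arrays. The deposited value table of log2 intensities holds 14145 circRNA probes and 0 linear probes and was not used. Per the submitters' processing notes limma was used, in a role not given in the sources used here.

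Log2 processed signal was averaged over the 10 spots of a probe without spots marked as outliers, less the 75th percentile of the array's circRNA probes. Gene symbols came from RefSeq (GRCr8) by transcript identifier for 39 of 62 linear probes. Groups were compared on all 62 in limma 3.58.1 (R 4.3.3; lmFit, eBayes), two-sided, with Benjamini-Hochberg adjustment and a threshold of 0.05. Pairs of genes were compared with exact permutation tests in scipy 1.17.1 and in limma over all 1891 pairs; p-values adjusted over the 4 genes or their pairs alone are not given. Both steps were tried on simulated data, with outcomes that are not given here and that no result above rests on. In the limma simulation no probe was given a spread above the median probe's, and no scan run was included. It therefore does not bear on wider probes such as Rplp1 or on the overlap of run and group. Named genes were the 4 genes, members of 6 translation lists, and for each gene the 3 named genes closest in profile. Alternatives covered scaling, background correction, spot summary, filter, scan run, replicate number, variance model, array weights and leaving out each array. The unscaled fit, the fits over all pairs and the pyrimidine run were chosen after the data were examined. The 4 genes, lists and tests were chosen with earlier results of these data known.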

Additional observations from a re-analysis of the deposited data

How the results depend on the processing

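Over 104 alternatives of the 4 group differences, 96 kept both direction and side of the threshold, 5 passed it and 3 changed sign. All 4 missed the threshold as reported, so keeping its side means missing it again. The alternatives are not independent: scan run as a block and scan run 1 alone give the same estimate, and the exact permutation test reuses the reported one. Rplp1 kept its sign but came to -0.16 with scan run as a block, from -1.76. Rplp1 passed with array weights (-2.25) and Pop7 too (-1.19), in a fit where normal replicate 1, the normal array of scan run 1, had a weight of 0.30. Rpl13a passed after normexp (-0.60). The sign turned for Rpl13a without scaling (0.11) and for Pop7 with scan run as a block or in scan run 1 alone (0.18 in both). Leaving out 1 array gave -2.16 to -1.30 for Rplp1, -0.82 to -0.56 for Rpl13a, 0.11 to 0.26 for Eif4b and -1.12 to -0.69 for Pop7. The number of the 4 genes past the limma adjusted threshold, 0 as reported, was 1 after normexp, 2 with array weights and 0 to 2 over the fits without 1 array.

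The number of linear probes past the threshold, 2 as reported, was 5 after quantile normalization, 5 when centred on the linear probes, 14 after normexp, 27 with array weights and 18 without scaling. It was 0 with scan run as a block and 0 in scan run 1 alone (1 probe at an unadjusted p under 0.05 in limma in each), 0 in a joint fit over 13953 circRNA and linear probes (21 unadjusted in limma), and 0 to 24 when 1 array was left out, the highest without normal replicate 1.

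Deviations of same-numbered arrays correlated at 0.065 to 0.55 over the linear probes. Differently numbered arrays were not compared, so these values cannot decide whether the numbers pair the samples. The main fit did not pair them. With the replicate number as a block, 5 linear probes passed in limma and no call on the 4 genes changed. For Rpl13a against Eif4b the block gave -0.90 (unadjusted exact permutation p = 0.062, the smallest that 5 pairs allow). That pair gave -0.82 with scan run as a block, by permutation and by limma alike, and -0.90 in limma over all pairs (limma adjusted p = 0.12 over the 1891 pairs), none of which passed; without 1 array it gave -0.98 to -0.79. With scan run as a block the sign turned for Rplp1 against Rpl13a (0.49, limma SE 1.05), Rpl13a against Pop7 (-0.83, SE 0.81) and Eif4b against Pop7 (-0.014, SE 0.79). These estimates rest on normal replicate 1 as the only normal array of its run, and with such SEs their sign is not settled. Rpl13a against Pop7 was -0.066 after quantile normalization and -0.087 to 0.39 without 1 array. Over the fits without 1 array, Rplp1 against Rpl13a was -1.44 to -0.62, Rplp1 against Eif4b -2.36 to -1.50, Rplp1 against Pop7 -1.22 to -0.57 and Eif4b against Pop7 0.84 to 1.31. The causes of these changes were not tested. The deposited value table was not run as an alternative, since it holds none of the linear probes.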
